A study of Mus musculus with 10 samples.

Results

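The genes described here encode the proteasome, the protease that degrades ubiquitin-tagged proteins, together with its inducible catalytic subunits, its activators and its assembly factors. They were taken from the annotation by symbol, as every gene named Psma, Psmb, Psmc, Psmd, Psme, Psmf or Psmg followed by a number. Of 54 annotated symbols that match, 50 were in the deposited tables, out of 22607 genes in all. The other 4 are pseudogenes or noncoding in the annotation. The 50 comprised 8 Psma, 11 Psmb, 7 Psmc, 14 Psmd, 5 Psme, 1 Psmf and 4 Psmg genes. Psmc3ip, which acts in meiotic recombination, matches the rule by its symbol and is no proteasome subunit.

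The cells were antigen-presenting cells sorted from 8-week-old wild-type mice of the C57BL/6 strain, and polyadenylated RNA from about 20000 to 50000 of them was sequenced per library. The 10 libraries formed 5 groups of 2: colonic and splenic cells positive for MHC class II (MHCII+), and colonic cells sorted as CD11c+, as CD11b+ or as positive for both markers (CD11b+CD11c+). The sample titles abbreviate these populations, and the tissue of each was read from the title of the series. The titles also number the MHCII+ libraries apart from the colonic subset libraries. Between these sets, a difference in the cells and any effect of the set cannot be told apart. Levels and ratios ranked below over all 5 groups carry this limit. Whether the 2 libraries of a group stem from different animals is not stated, and the p-values below therefore reflect the spread between libraries, part or all of which may be technical. In such bulk libraries, fewer cells of a type and less RNA per cell cannot be told apart.

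Proteins are degraded inside the barrel-shaped 20S core, whose outer alpha rings gate the entrance and whose inner beta rings carry the active sites. The 19S cap binds ubiquitinated proteins, removes the ubiquitin and unfolds them with its ring of ATPases. In cells exposed to interferon gamma, and constitutively in many haematopoietic cells, newly assembled cores take up Psmb8, Psmb9 and Psmb10 in place of Psmb5, Psmb6 and Psmb7. The resulting immunoproteasome alters which peptides are cut for presentation on MHC class I molecules, and dendritic cells are known for carrying it.

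Total estimated counts ranged from 12806139 to 41769042 per library, and the 50 genes took 0.365 to 0.536% of the counts assigned to genes. Itgam, which encodes CD11b, was at 4.65 and 5.68 TPM in the CD11c+ libraries and at 108 to 115 TPM in the CD11b+ and CD11b+CD11c+ libraries, as the sort labels require. Itgax, which encodes CD11c, was at 74.2 and 81.1 TPM in the CD11b+ libraries, against 113 and 132 TPM in the CD11c+ libraries, so its RNA did not separate these groups as Itgam did. H2-Ab1, a class II gene, was at 2965 TPM or more in every library. TPM, the relative transcript abundance, corrects for transcript length and is used here for levels across groups and between genes. CPM (counts scaled to library sizes after TMM normalization) is used inside the tested comparisons. A gene counts as called where the quasi-likelihood F test of edgeR, adjusted over every gene tested by the Benjamini-Hochberg method, gave a p under 0.05.

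Promoter windows of the inducible subunits Psmb8 and Psmb9, of the constitutive subunits Psmb5 and Psmb6 that they replace, and of the activator gene Psme1 are shown first, because the results turn on how these genes parted. Each window runs from 250 bases before to 50 bases after the annotated start (RefSeq, GRCm38.p6), 5′ to 3′ on the strand of the gene. They lie at chr17:34197945-34198244 (plus strand) for Psmb8, chr14:54617946-54618245 (minus) for Psmb5, chr17:34187281-34187580 (minus) for Psmb9, chr11:70525107-70525406 (plus) for Psmb6 and chr14:55578244-55578543 (plus) for Psme1. Capitals mark matches to the searched motifs.
Psmb8: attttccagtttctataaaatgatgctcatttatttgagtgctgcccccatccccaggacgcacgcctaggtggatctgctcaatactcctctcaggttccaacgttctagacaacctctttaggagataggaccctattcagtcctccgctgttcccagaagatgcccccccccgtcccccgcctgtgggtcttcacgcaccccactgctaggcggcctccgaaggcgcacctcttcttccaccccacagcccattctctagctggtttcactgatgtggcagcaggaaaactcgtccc
Psmb5: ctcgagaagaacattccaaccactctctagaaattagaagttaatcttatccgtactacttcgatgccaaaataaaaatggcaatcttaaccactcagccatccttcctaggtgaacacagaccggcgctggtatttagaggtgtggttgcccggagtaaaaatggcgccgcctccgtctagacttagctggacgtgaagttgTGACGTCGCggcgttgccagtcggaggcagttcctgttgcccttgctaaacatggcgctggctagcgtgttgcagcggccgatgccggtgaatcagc
Psmb9: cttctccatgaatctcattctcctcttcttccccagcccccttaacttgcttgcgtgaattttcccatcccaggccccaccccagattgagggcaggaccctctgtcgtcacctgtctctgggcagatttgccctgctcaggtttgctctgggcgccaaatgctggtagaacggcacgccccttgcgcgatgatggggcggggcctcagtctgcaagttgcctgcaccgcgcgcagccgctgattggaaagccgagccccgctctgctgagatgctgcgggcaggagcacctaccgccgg
Psmb6: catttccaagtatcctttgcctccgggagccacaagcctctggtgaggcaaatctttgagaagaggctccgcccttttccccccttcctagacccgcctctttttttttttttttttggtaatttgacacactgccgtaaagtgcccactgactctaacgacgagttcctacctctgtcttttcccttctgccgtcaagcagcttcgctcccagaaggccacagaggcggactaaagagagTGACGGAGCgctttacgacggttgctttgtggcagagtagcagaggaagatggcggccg
Psme1: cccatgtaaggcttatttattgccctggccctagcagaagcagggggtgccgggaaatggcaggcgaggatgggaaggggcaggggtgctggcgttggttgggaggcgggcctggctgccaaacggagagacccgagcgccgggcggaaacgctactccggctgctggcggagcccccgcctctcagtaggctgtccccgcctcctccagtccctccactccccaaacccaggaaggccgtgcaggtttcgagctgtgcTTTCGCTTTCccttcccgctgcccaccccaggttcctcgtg

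The motifs were searched on both strands in the windows of 42 of the 50 genes. The core of the interferon-stimulated response element, written here as 2 copies of GAAA with any 2 bases between them, was found in 3.44% of all 32851 windows of the table and in 5 of the 42 genes, Psmb3, Psmd4, Psmd9, Psme1 and Psmg4. In Psme1 it lies on the opposite strand and starts at base 260 of the window. The core of the antioxidant response element, TGACNNNGC, was in 12.4% of all windows and in 6 genes, Psmb5, Psmb6, Psmc6, Psmd12, Psmd9 and Psme4. The windows of Psmb8, Psmb9 and Psmb10 held neither motif. Those of Psmb8, Psmb9 and Psme1 lie inside the genes as annotated for the counts, whose 5′ ends are at 34197721, 34187764 and 55578123. The sequence before these ends is outside their windows. The window of Psmb9 shares 275 bases with that of Tap1 at chr17:34187306-34187605 on the plus strand. Tap1 encodes a subunit of the transporter that carries proteasome products to MHC class I molecules. A match is a description of the letters and not evidence of binding.

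The 3 inducible catalytic subunits did not have the same profile over the 5 groups. Psmb8, which takes the chymotrypsin-like place of Psmb5, was at 254 and 287 TPM in the splenic MHCII+ libraries and at 268 and 253 TPM in the CD11c+ libraries. It was at 149.7 and 117 TPM in the CD11b+CD11c+ libraries, at 127 and 130.3 TPM in the colonic MHCII+ libraries and at 91.6 and 90.2 TPM in the CD11b+ libraries. The splenic and CD11c+ libraries overlapped and stood above all others, the CD11b+CD11c+ and colonic MHCII+ libraries overlapped, and the CD11b+ libraries were lowest. Psmb9, which replaces the caspase-like subunit Psmb6, was at 179 and 202 TPM in splenic MHCII+ cells and at 198 and 179 TPM in CD11c+ cells. Its level was 63.4 and 82.7 TPM in colonic MHCII+ cells, 67.4 and 53.9 TPM in CD11b+CD11c+ cells and 37.7 and 38.5 TPM in CD11b+ cells. The order of the groups thus fell into the same 3 separate levels as that of Psmb8, with colonic MHCII+ and CD11b+CD11c+ cells overlapping in the middle. The highest group mean was 5.0 times the lowest for Psmb9 and 2.97 times for Psmb8.

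Psmb10, which replaces the trypsin-like subunit Psmb7, followed another profile. Its level was 82.8 and 96.3 TPM in splenic MHCII+ cells and 58.0 and 70.6 TPM in colonic MHCII+ cells. It was 55.8 and 50.6 TPM in CD11c+ cells, 50.8 and 52.7 TPM in CD11b+CD11c+ cells and 48.3 and 46.8 TPM in CD11b+ cells. The CD11c+ and CD11b+CD11c+ libraries overlapped, and the CD11b+ libraries lay just below them. The highest group mean was 1.88 times the lowest.

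The constitutive partners spanned narrower ranges. Psmb5 was highest in colonic MHCII+ cells, at 65.5 and 78.5 TPM, and lowest in CD11b+CD11c+ cells, at 43.6 and 38.0 TPM, which overlapped the CD11b+ libraries at 43.2 and 41.6 TPM. Psmb6 was at 92.9 to 107 TPM in the 8 colonic libraries and at 76.1 and 81.6 TPM in the splenic ones. Psmb7 was highest in CD11c+ cells, at 116 and 115 TPM, and lowest in CD11b+ cells, at 84.2 and 83 TPM. Over the 31 constitutive subunits of the 20S core and the 19S cap, the highest group mean was 1.22 (Psmc2) to 1.77 (Psmb5) times the lowest, with a median of 1.37. Psmb8 and Psmb9 lay outside this range and Psmb10 just above it. Psmb11, the subunit of the thymus-specific proteasome, was listed at 0 in all 10 libraries. Psma8, the alpha subunit of the testis proteasome, had 5 to 24 estimated counts per library and a mean of 0.843 TPM.

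**Figure D1:**
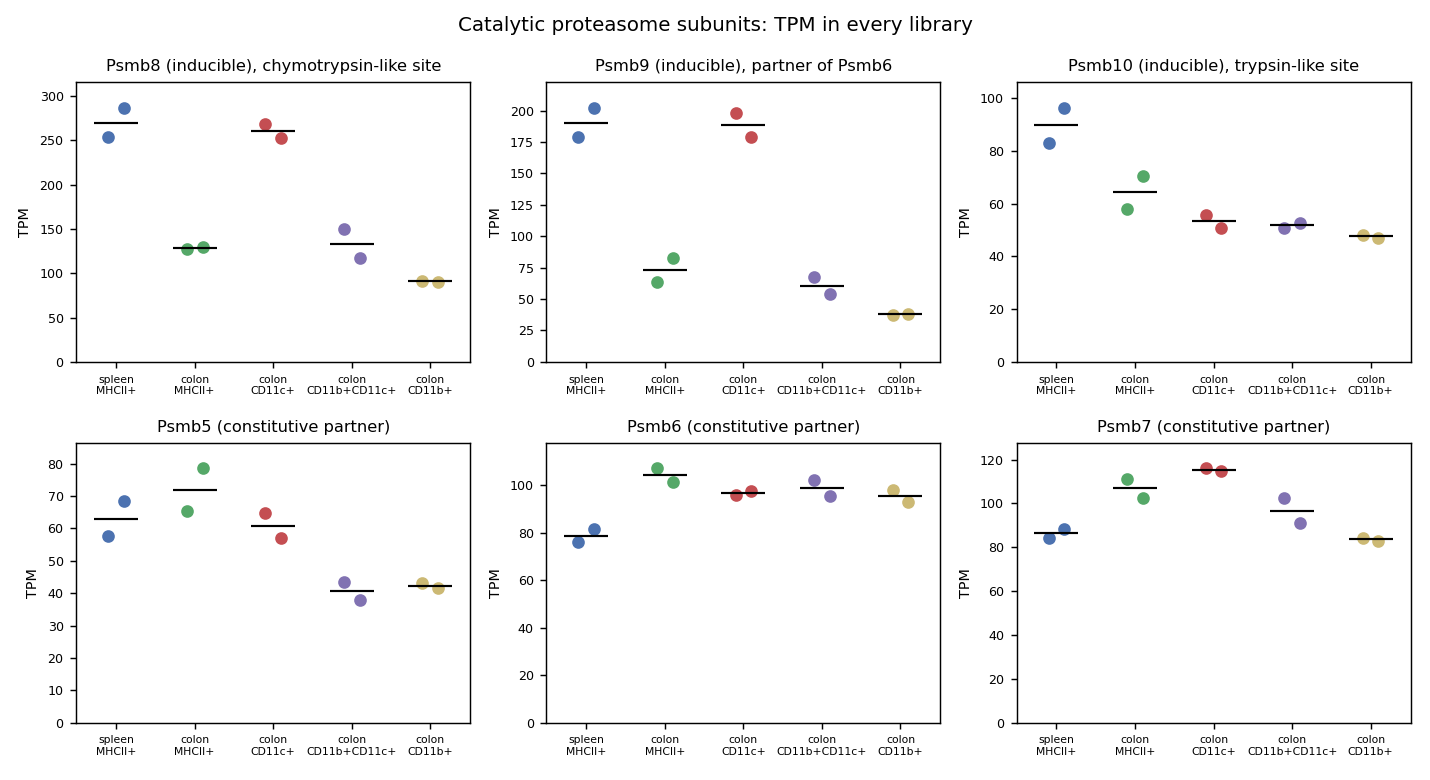
TPM of the 3 inducible catalytic subunits (top row) and of the constitutive subunit each replaces (bottom row) in every library, with points for libraries and a line for the mean of the 2 libraries of a group. Psmb8 and Psmb9 are high in the splenic MHCII+ and colonic CD11c+ libraries and lowest in the CD11b+ libraries, while Psmb6 stays between 76.1 and 107 TPM.

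Set against each other within a library, the inducible subunits made up the largest share of the 6 catalytic transcripts in splenic MHCII+ cells. There Psmb8, Psmb9 and Psmb10 together held 70.3 and 71.1% of their summed TPM (mean 70.7 ± 0.554% SD, n = 2). The share was 65.4 and 64.1% in CD11c+ cells (64.8 ± 0.877%), 51.9 and 49.9% in CD11b+CD11c+ cells (50.9 ± 1.40%) and 46.7 and 50.1% in colonic MHCII+ cells (48.4 ± 2.41%). It was 44.0 and 44.7% in CD11b+ cells (44.4 ± 0.429%). The CD11b+CD11c+ and colonic MHCII+ libraries overlapped, and every other pair of groups was separate. A ratio inside a library does not depend on how libraries are scaled to each other. No p is given for it, since 2 libraries against 2 allow no exact two-sided p below 0.33.

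The 3 pairs behaved differently. The log2 ratio of Psmb8 to Psmb5 was 2.13 and 2.07 in splenic MHCII+ cells and 2.05 and 2.15 in CD11c+ cells. It was 1.78 and 1.62 in CD11b+CD11c+ cells, 1.09 and 1.12 in CD11b+ cells and 0.96 and 0.73 in colonic MHCII+ cells, so Psmb8 exceeded Psmb5 in every library. The ratio of Psmb9 to Psmb6 changed sign between groups. It was 1.23 and 1.31 in splenic MHCII+ cells and 1.05 and 0.87 in CD11c+ cells, and it was -0.76 and -0.29 in colonic MHCII+ cells, -0.60 and -0.82 in CD11b+CD11c+ cells and -1.38 and -1.27 in CD11b+ cells. Psmb6 was thus the more abundant transcript of this pair in the 6 libraries of the last 3 groups.

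The ratio of Psmb10 to Psmb7 ran the other way among the colonic subsets. It was lowest in CD11c+ cells, at -1.06 and -1.18, against -0.80 and -0.83 in CD11b+ cells, and the CD11b+CD11c+ libraries lay at -1.01 and -0.79. The CD11c+ libraries lay below all 4 of the others. Only the splenic libraries had near-equal levels of both, at -0.02 and 0.12. In the subsets the sum of the 3 inducible subunits therefore includes a pair that differed in the opposite direction.

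**Figure D2:**
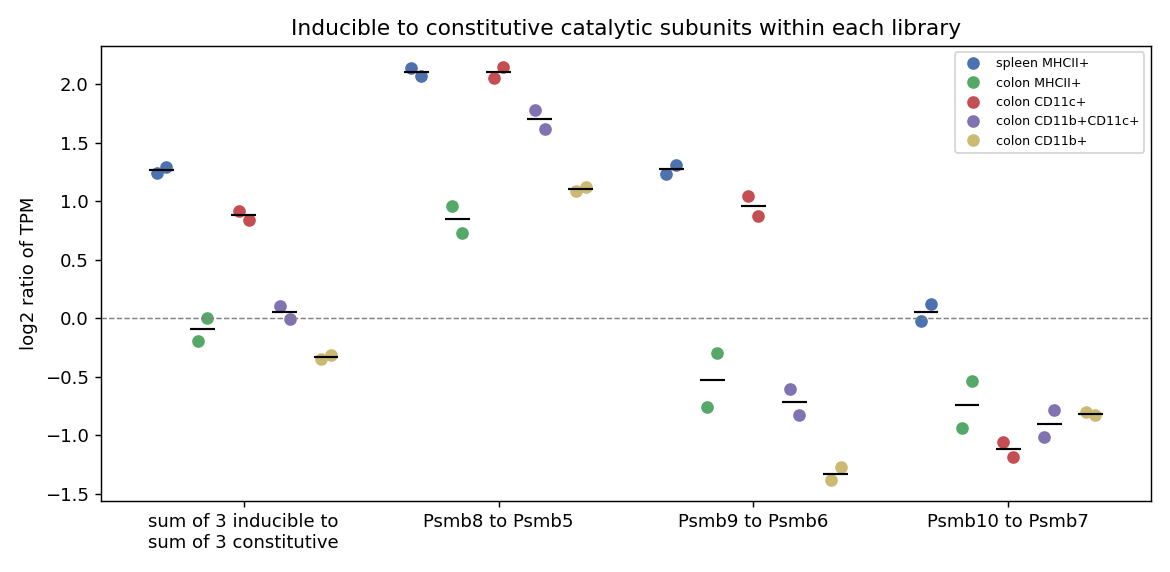
Log2 ratio of TPM of inducible to constitutive catalytic subunits in each library, for the sums and for each pair, with a point for each library and a line for the group mean. The dashed line marks equal levels. Psmb9 to Psmb6 crosses it between CD11c+ and CD11b+ cells, and Psmb10 to Psmb7 is lowest in CD11c+ cells.

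In colonic against splenic MHCII+ cells, most subunits of the core and cap that differed were higher in the colon, while the immunoproteasome subunits Psmb8 and Psmb9 and the activator gene Psme1 were lower. Of the 49 genes that passed the count filter, 21 were called higher and 5 lower. The background was broad, with 60.3% of all 15076 genes tested called, 31.6% higher and 28.7% lower. The median log2 fold change was 0.25 over the 49 genes and 0.02 over all genes. On the TPM scale the median of all genes lay 0.22 log2 units lower than with TMM scaling, against 0.03 or less in the other comparisons. With limma on log2(TPM + 1), 4 of the genes were then called higher and 7 lower, and the median of the genes was 0.12 against -0.20 for all. The number of subunits called higher thus differed between edgeR and limma on TPM, which differ in scaling, filter and test. The part of each was not separated. With RLE in place of TMM scaling in edgeR, 24 were called higher and 5 lower. Psmb8, Psmb9, Psme1, Psme2b and Psmd5 were called lower with edgeR and with limma. The median of the 49 genes was 0.18 without splenic library 1 and 0.27 without splenic library 2. Fewer of these genes, and fewer of all genes, were called in these fits.

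Psmb9 was at 57.7 and 80.1 CPM in the colonic libraries and at 151 and 164 CPM in the splenic ones. This is a 2.29-fold lower level in the colon (log2 fold change -1.20 ± 0.16 SE, adjusted p = 0.00098 in edgeR), and the groups did not overlap. Psmb8 was at 162 and 172 CPM in the colon and at 299.5 and 323 CPM in the spleen (-0.90 ± 0.10, adjusted p = 0.00034). Psmb10 was at 72.6 and 92.0 CPM against 96.5 and 107 CPM, in the same direction and without a call (-0.31 ± 0.13, adjusted p = 0.089). It was called without colonic MHCII+ library 2, at -0.49 with an adjusted p of 0.011, and also without the count filter (0.041) or with all 10 libraries in 1 fit (0.033).

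The constitutive partners lay on the other side. Psmb6 was at 110.3 and 110.2 CPM in the colon and at 73.1 and 75.1 CPM in the spleen (0.57 ± 0.09, adjusted p = 0.0016). Psmb7 was at 142 and 136 CPM against 99.9 and 100.2 CPM (0.47 ± 0.09, adjusted p = 0.0038). Psmb5 was at 76.7 and 98 CPM against 63.8 and 71.9 CPM and was not called (0.36 ± 0.14, adjusted p = 0.061). Without colonic MHCII+ library 1 it was called, at 0.49 with an adjusted p of 0.013. It was also called with RLE scaling (0.049), DESeq2 (0.039), no count filter (0.046) or all 10 libraries in 1 fit (0.039). With limma on TPM the Psmb6 call held at 0.40 and the Psmb7 value of 0.30 was no longer called (adjusted p = 0.079).

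Among the other core subunits, 1 of 4 structural beta genes and 4 of 7 alpha genes were called higher. Psmb4, a structural beta subunit and the most abundant of its class at a mean of 155 TPM, showed the largest rise, from 139 and 140.0 CPM in the spleen to 215 and 269 CPM in the colon (0.79 ± 0.12, adjusted p = 0.0019). Psmb3, the least abundant of that class at 82.4 TPM, had a log2 fold change of -0.04. The alpha genes called higher were Psma1, Psma3, Psma5 and Psma6, at 0.30 to 0.44. Psma3 was the most abundant alpha gene, at a mean of 162 TPM, and Psma4 the least, at 72.3 TPM.

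In the 19S cap 14 of 17 genes were called higher and none lower by edgeR. All 6 ATPases, the motors that unfold substrates, were among them, with log2 fold changes of 0.40 to 0.65. Psmc6 was at 104 and 103 CPM in the colon and 64.5 and 66.8 CPM in the spleen (0.65 ± 0.09, adjusted p = 0.00095). Psmc3 was the most abundant ATPase gene, at 69.5 TPM, and Psmc5 the least, at 39.4 TPM. Psmd7, a scaffold partner of the deubiquitinase Psmd14, was at 75.5 and 85.6 CPM against 51.2 and 51.6 CPM (0.65 ± 0.10, adjusted p = 0.0019). With limma on TPM, only Psmc6 and Psmd7 of the cap were called. None of the 4 Psmg chaperones of 20S assembly was called by edgeR, and Psmd5, a chaperone of 19S assembly, was lower, at 31 and 30.5 CPM against 39.1 and 39.6 CPM (-0.36 ± 0.11, adjusted p = 0.028).

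Of the 6 activator and inhibitor genes, Psme1 and Psme2b were called lower, none was called higher and 4 were not called. Psme1, the alpha subunit of the interferon-inducible activator PA28, was at 199.9 and 242 CPM in colonic and at 348 and 321 CPM in splenic MHCII+ cells (-0.60 ± 0.12, adjusted p = 0.0056). Its partner Psme2 was at 168 and 202 CPM against 207 and 213 CPM and was not called (-0.18 ± 0.12, adjusted p = 0.21), except without colonic MHCII+ library 2, at -0.33 with an adjusted p of 0.034. Psme3, the nuclear activator PA28 gamma, was at 76.6 and 72.8 CPM against 73.6 and 72.3 CPM (0.03 ± 0.09, adjusted p = 0.76), and these groups overlapped. Its sign turned with limma on TPM, at -0.12.

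The largest difference of any of the 50 genes was that of Psme2b, a copy of Psme2. It was at 4.03 and 2.80 CPM in the colon and at 58.6 and 61.5 CPM in the spleen (-4.10 ± 0.19, adjusted p = 1.2e-05). The 720 coding bases of both genes differ at 5 positions (99.3% identity), and only 147 of the 690 windows of 31 bases in Psme2b are unique to it. The division of reads between the copies is thus uncertain. Psme2b took 21.8 and 22.1% of the summed TPM of both copies in the splenic libraries and 1.32 to 7.10% in the 8 colonic ones. Both copies together were at 278 and 301 TPM in splenic and at 168 and 195 TPM in colonic MHCII+ cells.

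Markers of other cells moved with this comparison. The 10 epithelial markers, all measured, summed to 2859 and 2974 TPM in the colonic MHCII+ libraries, and to 15.0 and 18.5 TPM in the splenic ones. The 6 neutrophil markers summed to 16116 and 23449 TPM in the splenic libraries, against 582 and 272 TPM. The 6 B cell markers summed to 962 and 1041 TPM in the spleen and to 53.7 and 44.3 TPM in the colon, and no marker of these 3 lists was at 0 in either group. The 8 plasma cell markers, none at 0, summed to 3454 and 2890 TPM in the colon and to 319 and 303 TPM in the spleen. Jchain alone was at 2966 and 2451 TPM against 95.6 and 88.6 TPM, and Irf4 went the other way, at 22.5 and 23.9 TPM against 63.4 and 44.2 TPM. The 6 conventional dendritic cell markers summed to 863 and 741 TPM in the spleen and to 255 and 311 TPM in the colon, with none at 0. The 6 macrophage markers summed to 755 and 700.1 TPM in the colon and to 238 and 276 TPM in the spleen, and the 8 T and NK cell markers to 121 and 169 TPM against 302 and 419 TPM. The 6 stromal and endothelial markers summed to 205 and 284 TPM in the colon and to 47.1 and 102 TPM in the spleen, and none of these was at 0. The endothelial genes of that list went the other way. Pecam1 was at 5.50 and 5.94 TPM in the colon against 29.7 and 29.3 TPM, and Cdh5 at 0.156 and 0.287 TPM against 1.48 and 0.731 TPM. The 6 markers of cycling cells summed to 93.2 and 77.7 TPM in the colon and to 126 and 123 TPM in the spleen. The part of all these markers in the result was not tested.

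**Figure D3:**
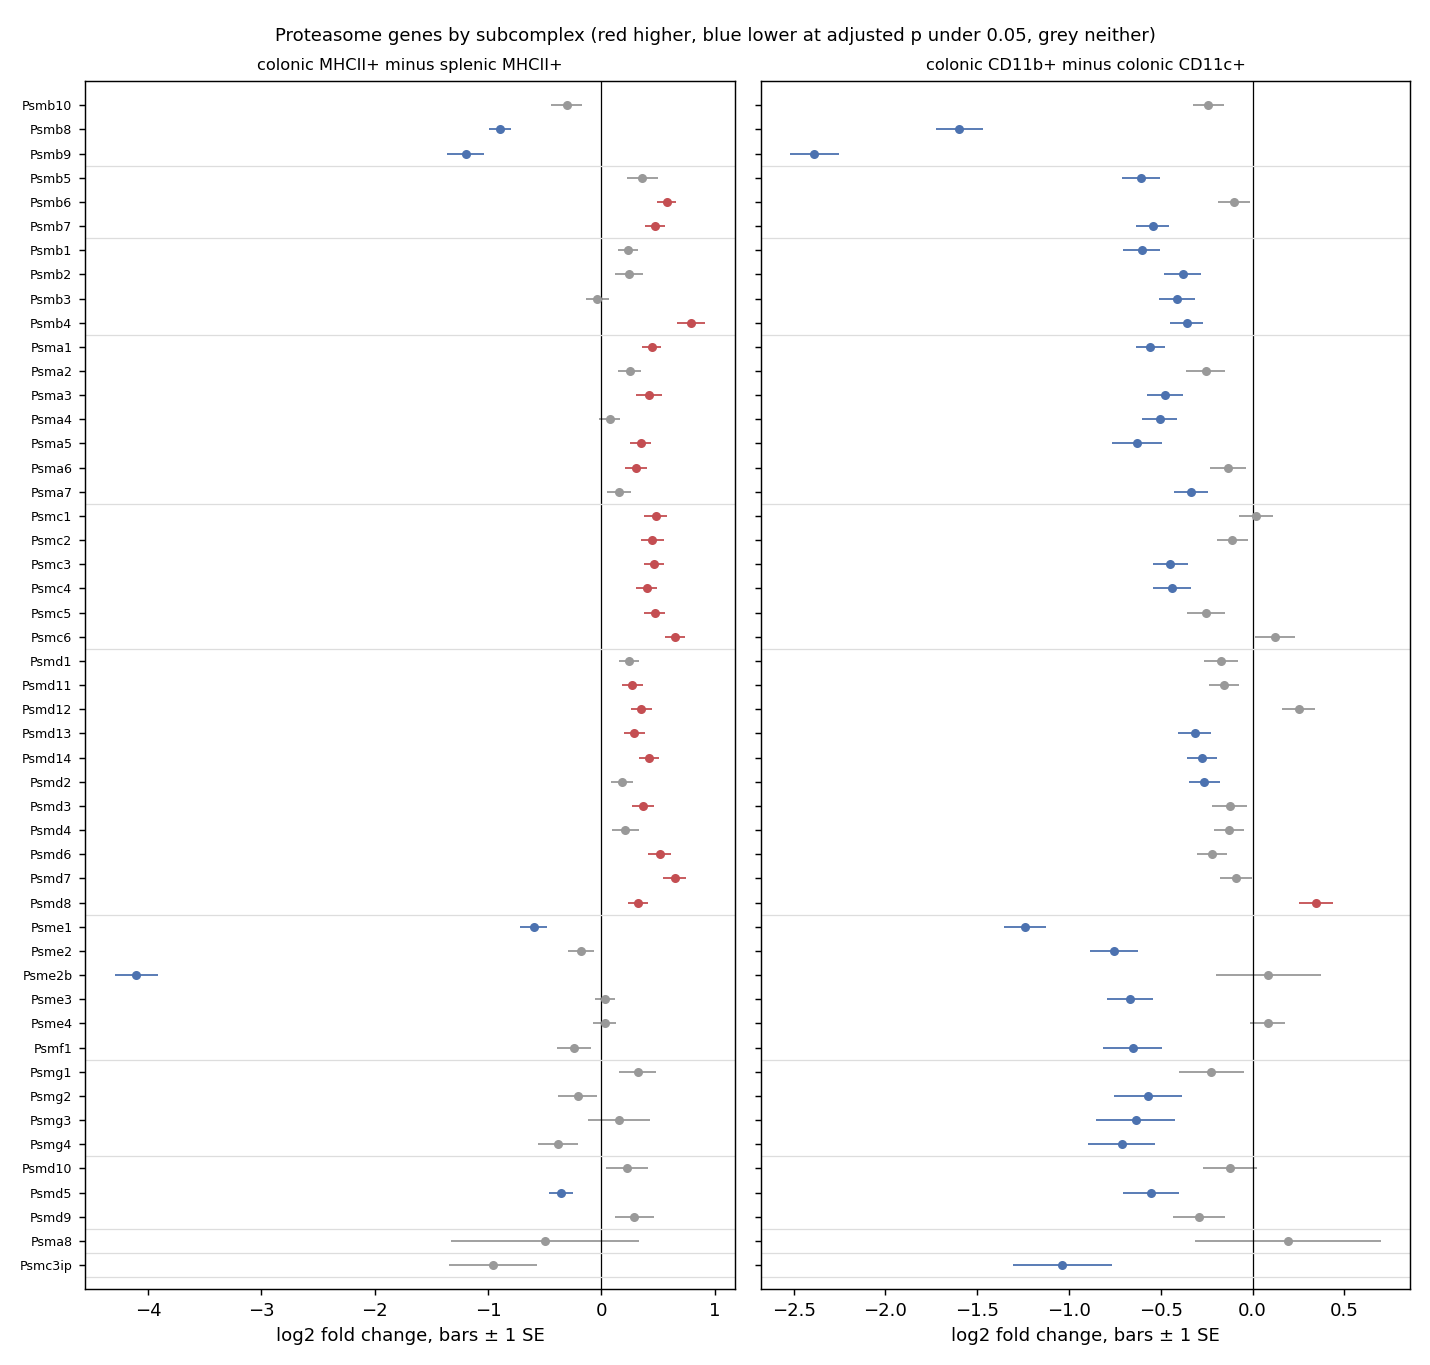
Log2 fold change ± 1 SE of the 49 tested genes for colonic against splenic MHCII+ cells (left) and colonic CD11b+ against CD11c+ cells (right), on separate scales. From top to bottom, grey lines separate inducible catalytic, constitutive catalytic and structural beta subunits, alpha subunits, 19S ATPases, 19S non-ATPases, activators with the inhibitor Psmf1, chaperones of the 20S core and of the 19S cap, Psma8 and Psmc3ip. Psmb8 and Psmb9 lie to the left in both panels, while all 6 19S ATPases lie to the right in the left panel and 2 of the 6, Psmc1 and Psmc6, in the right panel.

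Among the colonic subsets, CD11b+ cells had lower levels of Psmb8 and Psmb9, of both PA28 subunits and of most core subunits than CD11c+ cells, while the inducible subunit Psmb10 was not called. Of the 49 genes tested, 1 was called higher and 27 lower, where 52% of all 14225 genes tested were called, 27% higher and 25% lower. The median log2 fold change was -0.31 over the 49 genes and -0.02 over all genes. The median of the 49 genes was -0.31 without CD11b+ library 2, -0.38 without CD11b+ library 1 and -0.35 without CD11c+ library 1. Fewer of these genes, and fewer of all genes, were called in these fits. With limma on log2(TPM + 1), 1 gene was called higher and 13 lower, where 2938 of all 12521 genes were called higher and 2110 lower.

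Psmb9 had the largest change, from 187 and 177.5 CPM in CD11c+ cells to 34.1 and 35.6 CPM in CD11b+ cells. The level was 5.23-fold lower (-2.39 ± 0.13, adjusted p = 0.00021 in edgeR). Psmb8 was at 352 and 344.5 CPM in CD11c+ and at 115 and 116 CPM in CD11b+ cells, a 3.02-fold lower level (-1.60 ± 0.13, adjusted p = 0.00047). Both were called under all alternatives run for this comparison, with log2 fold changes of at least 1.51 in size. Psmb10 was at 72.2 and 68.1 CPM against 59.4 and 59.3 CPM, which did not overlap and was not called (-0.24 ± 0.08, adjusted p = 0.054).

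Of the constitutive partners, 2 of 3 were lower by smaller amounts. Psmb5 was at 79.7 and 73.0 CPM in CD11c+ and at 50.5 and 49.9 CPM in CD11b+ cells (-0.61 ± 0.10, adjusted p = 0.0046). Psmb7 was at 153 and 158 CPM against 106 and 107 CPM (-0.54 ± 0.09, adjusted p = 0.0044). Psmb6 was at 102 and 109 CPM against 100.1 and 97.1 CPM and was not called (-0.10 ± 0.09, adjusted p = 0.37). In the constitutive 20S core as a whole, 11 of 14 genes were called lower and none higher, with a median of -0.44. All 4 structural beta genes and 5 of 7 alpha genes were among them, at log2 fold changes of -0.34 to -0.63.

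The 19S cap moved less. Of its 17 genes, 5 were called lower and 1 higher, with a median of -0.15. Psmc3 (-0.45) and Psmc4 (-0.44) were the ATPases called lower, and Psmd13, the deubiquitinase Psmd14 and Psmd2 were the other 3, at -0.26 to -0.31. Psmd8, the most abundant non-ATPase gene at a mean of 95.7 TPM, was higher in CD11b+ cells, at 154.5 and 147 CPM against 112 and 125 CPM (0.35 ± 0.09, adjusted p = 0.022). Its call was lost without CD11c+ library 1 (adjusted p = 0.093), CD11b+ library 1 (0.13) or CD11b+ library 2 (0.087). Psmd12, the least abundant of that class at 32.4 TPM, was not called (0.25 ± 0.09, adjusted p = 0.053).

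Psme1 was at 342 and 344.5 CPM in CD11c+ and at 142 and 149 CPM in CD11b+ cells (-1.24 ± 0.11, adjusted p = 0.00064). Psme2 was at 196 and 199 CPM against 122 and 112 CPM (-0.76 ± 0.13, adjusted p = 0.0047), and Psme2b was not called (0.09 ± 0.29, adjusted p = 0.82). Psme3 was at 80.8 and 80.2 CPM against 45.2 and 56.0 CPM (-0.67 ± 0.13, adjusted p = 0.0064). Every PA28 gene other than the copy Psme2b was thus lower in CD11b+ cells. Psme4, which encodes the activator PA200, was not called (0.08 ± 0.10), and the inhibitor gene Psmf1 was lower (-0.65 ± 0.16, adjusted p = 0.017).

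Of the 4 chaperones of 20S assembly, Psmg2, Psmg3 and Psmg4 were called lower, at -0.57 to -0.71. Psmg4 was the most abundant of them, at a mean of 31.6 TPM, and Psmg1 the least, at 8.25 TPM. The 19S chaperone Psmd5 was lower as well (-0.55 ± 0.15, adjusted p = 0.024). Psmc3ip, the gene that shares only its symbol, was at 4.55 and 3.86 CPM against 2.31 and 1.83 CPM (-1.04 ± 0.27, adjusted p = 0.02), and its call was lost without CD11c+ library 1 (0.096), CD11b+ library 1 (0.059) or CD11b+ library 2 (0.11). The 6 markers of cycling cells summed to 104 and 115 TPM in CD11c+ and to 63.7 and 56.5 TPM in CD11b+ cells, with none at 0. Of these, Mki67 overlapped between the groups, at 19.1 and 22.7 TPM against 19.35 and 19.45 TPM. The part of these markers in the result was not tested.

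This comparison and that of colonic with splenic MHCII+ cells share no library. Psmb8, Psmb9, Psme1 and Psmd5 were called lower in both, which is 4 of the 5 lower calls of the first and 4 of the 27 of the second. Of all 13941 genes tested in both, 10.1% were called lower in both, against 8.16% of the 49 genes (4 of 49), so this share lay near the background. A further 9 genes were called higher in colonic than splenic MHCII+ cells and lower in CD11b+ than CD11c+ cells, namely Psma1, Psma3, Psma5, Psmb4, Psmb7, Psmc3, Psmc4, Psmd13 and Psmd14. They are 18.4% of the 49 genes, against 4.91% of all genes tested in both. Of the 9, only Psmb4 was called higher in the first comparison with limma on TPM.

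Marker levels also differed between the CD11b+ and CD11c+ libraries. The 6 macrophage markers summed to 2648 and 3031 TPM in CD11b+ cells and to 51.9 and 420.5 TPM in CD11c+ cells, which differed widely between the replicates. The 6 conventional dendritic cell markers summed to 788 and 916 TPM in CD11c+ and to 100 and 93.4 TPM in CD11b+ cells. The 8 plasma cell markers summed to 7320 and 8758 TPM in CD11c+ and to 4247 and 3391 TPM in CD11b+ cells. Jchain alone was at 6766 and 8079 TPM against 3694 and 2866 TPM. Xbp1 and Irf4 overlapped between the groups, and Prdm1 was lower in CD11c+ cells, at 5.25 and 11.2 TPM against 36.8 and 44.0 TPM. The 8 T and NK cell markers summed to 787 and 239 TPM in CD11c+ and to 23.8 and 25.9 TPM in CD11b+ cells. The 6 stromal and endothelial markers were higher in CD11b+ cells, at 717 and 637 TPM against 207 and 241 TPM. No marker of these 5 lists was at 0. The 6 neutrophil markers summed to 387 and 359 TPM in CD11b+ cells and to 1.48 and 3.61 TPM in CD11c+ cells, where Ngp, Camp and S100a8 were at 0. The 5 eosinophil markers summed to 108 and 95.6 TPM in CD11b+ and to 11.8 and 18.7 TPM in CD11c+ cells. Of these, Epx was at 0.039 and 0.042 TPM in CD11b+ and at 0 in CD11c+ cells. Prg2 went the other way, at 5.63 and 7.81 TPM in CD11b+ against 9.17 and 13.6 TPM in CD11c+ cells. The 10 epithelial markers summed to 769 and 462 TPM in CD11b+ and to 268 and 304 TPM in CD11c+ cells. The part of all these markers in the result was not tested.

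CD11b+CD11c+ cells also had lower levels of 2 of the 3 inducible subunits, Psmb8 and Psmb9, and of 6 of the 14 constitutive core subunits than CD11c+ cells. In this comparison 1 gene was called higher and 15 lower of 49, where 43% of all genes were called, 20.4% higher and 22.5% lower. It shares the CD11c+ libraries with the previous comparison, so the values of both are given side by side and are not independent. The median was -0.20 over the genes and -0.09 over all genes tested. The median of the 49 genes was -0.08 without CD11b+CD11c+ library 2 and -0.21 without CD11c+ library 1. It was -0.14 without CD11b+ library 2 and -0.20 without CD11b+ library 1. Fewer of these genes, and fewer of all genes, were called in these fits.

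Psmb9 was at 62.5 and 49.6 CPM in CD11b+CD11c+ cells and at 187 and 177.5 CPM in CD11c+ cells (-1.70 ± 0.13, adjusted p = 0.00058). Psmb8 was at 196 and 154 CPM against 352 and 344.5 CPM (-0.99 ± 0.13, adjusted p = 0.0023). Psmb10 was at 65.7 and 68.6 CPM against 72.2 and 68.1 CPM, where the groups overlapped (-0.06 ± 0.08, adjusted p = 0.58). The inducible subunits again parted, with Psmb8 and Psmb9 called and Psmb10 not.

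Psmb5 was at 53.7 and 47.2 CPM against 79.7 and 73.0 CPM (-0.60 ± 0.10, adjusted p = 0.0059). Without CD11b+CD11c+ library 2 this call was lost, at -0.46 with an adjusted p of 0.057. Psmb7 was at 135 and 121 CPM against 153 and 158 CPM (-0.28 ± 0.09, adjusted p = 0.048), and the call was lost under every alternative run. Psmb6 had a log2 fold change of 0.00 ± 0.09. Of the constitutive core 6 of 14 genes were called lower and of the cap 1 of 17, and Psmd8 of the cap was again higher (0.37 ± 0.09, adjusted p = 0.021). The Psmd8 call was lost without CD11c+ library 1 (0.086), without either CD11b+CD11c+ library (0.087 and 0.054) or without CD11b+ library 1 (0.054).

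Psme1 was at 191 and 157 CPM in CD11b+CD11c+ cells and at 342 and 344.5 CPM in CD11c+ cells (-0.98 ± 0.11, adjusted p = 0.0016). Psme2 was at 155.5 and 123 CPM against 196 and 199 CPM (-0.50 ± 0.13, adjusted p = 0.023), and this call was lost without CD11b+CD11c+ library 2 (0.13) or CD11b+ library 2 (0.064), or with limma on TPM (0.052). Psme3 was at 63.7 and 57.6 CPM against 80.8 and 80.2 CPM (-0.41 ± 0.12, adjusted p = 0.041). The Psme3 call was lost under most alternatives, including every fit that left out a library other than CD11b+ library 1. Psmc3ip was lower (-1.22 ± 0.28, adjusted p = 0.015), and its call was lost without CD11c+ library 1 (0.07) or CD11b+CD11c+ library 2 (0.092). The 6 macrophage markers summed to 2783 and 3732 TPM in CD11b+CD11c+ cells, and the 6 conventional dendritic cell markers to 316 and 199 TPM. The 8 plasma cell markers summed to 3176 and 2620 TPM, of which Jchain held 2707 and 2159 TPM. Irf4 (58.6 and 56.7 TPM) and Prdm1 (34.4 and 45.9 TPM) of that list were higher than in CD11c+ cells. The 8 T and NK cell markers summed to 42.4 and 13.5 TPM, and no marker of these 4 lists was at 0. Their part in the result was not tested.

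CD11b+CD11c+ and CD11b+ cells were the closest pair. Psmb9 and Psmb8 were the only genes called, both higher in CD11b+CD11c+ cells, where 9.63% of all genes were called, 3.79% higher and 5.84% lower. At an unadjusted p under 0.05 in edgeR there were 11 of the 49 genes, for which no share of all genes was computed. DESeq2 called 8 of the 49 genes, all higher, where it called 1015 higher and 1014 lower of all 14225 genes. Psmb9 was at 62.5 and 49.6 CPM against 34.1 and 35.6 CPM (0.68 ± 0.13, adjusted p = 0.025 in edgeR). Psmb8 was at 196 and 154 CPM against 114.5 and 116 CPM (0.61 ± 0.13, adjusted p = 0.036). Neither pair of groups overlapped, but both calls were lost without CD11b+CD11c+ library 1 (Psmb9 0.094, Psmb8 0.12), CD11b+ library 1 (0.19 and 0.23) or CD11b+ library 2 (0.093 and 0.11), and with limma on TPM (0.067 and 0.11). The Psmb8 call was also lost with the effective length offset (0.062). Psmb10 (0.18), Psmb7 (0.26), Psmb6 (0.11) and Psmb5 (0.01) were not called, nor were Psme1 (0.26), Psme2 (0.25) and Psme3 (0.26). Psmb7 was called with DESeq2 (0.30, adjusted p = 0.044) and with all 10 libraries in 1 fit (0.35, adjusted p = 0.029). The 10 epithelial markers summed to 357 and 423 TPM in CD11b+CD11c+ cells and to 769 and 462 TPM in CD11b+ cells, and the 6 neutrophil markers to 26.6 and 46.4 TPM, with Ngp at 0, against 387 and 359 TPM. The 6 conventional dendritic cell markers, none at 0, summed to 316 and 199 TPM in CD11b+CD11c+ cells and to 100 and 93.4 TPM in CD11b+ cells, higher in the same group as Psmb8 and Psmb9. The 6 stromal and endothelial markers summed to 143 and 118 TPM against 717 and 637 TPM, and the 5 eosinophil markers to 13.8 and 15.9 TPM against 108 and 95.6 TPM, with none at 0. Their part in the result was not tested.

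Beyond the genes named by the rule, 17 of 18 listed factors of proteasome assembly and regulation were tested. In colonic against splenic MHCII+ cells 7 were called higher and 4 lower, where 31.6% of all genes tested were called higher and 28.7% lower. Nfe2l1, the transcription factor that raises proteasome genes when degradation is impaired, was at 156 and 153 CPM against 94.5 and 98.4 CPM (0.68 ± 0.09, adjusted p = 0.0008). Ddi2, the protease that activates it, was at 55.6 and 57.9 CPM against 120.4 and 109 CPM (-1.02 ± 0.10, adjusted p = 0.00021). These partners of one pathway thus differed in opposite directions. Nfe2l2, the antioxidant response factor, was at 370.4 and 328 CPM against 109 and 132 CPM (1.53 ± 0.13, adjusted p = 0.00011), and Txnl1, a thioredoxin-like protein bound to the cap, rose by 0.90 ± 0.10 (adjusted p = 0.00039).

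In the subsets the assembly factor Pomp, which is needed to build the core and favours the immunoproteasome, was lower alongside Psmb8 and Psmb9. It was at 132 and 133 CPM in CD11c+ cells and at 67.1 and 66.0 CPM in CD11b+ cells (-0.99 ± 0.10, adjusted p = 0.00075). CD11b+CD11c+ cells had 82.3 and 72 CPM (-0.78 ± 0.10 against CD11c+, adjusted p = 0.002). In colonic against splenic MHCII+ cells Pomp was at 88.9 and 118 CPM against 122.5 and 122.2 CPM and was not called (-0.24 ± 0.14, adjusted p = 0.19). Nfe2l2 was higher in CD11b+ than CD11c+ cells (1.5 ± 0.23, adjusted p = 0.0032) and in CD11b+CD11c+ than CD11c+ cells (1.67 ± 0.23, adjusted p = 0.0028), as was Nfe2l1 by smaller amounts (0.34 and 0.41). Of the 17 factors, 2 were called higher and 4 lower in the first of these comparisons, 2 and 1 in the second, and none between CD11b+CD11c+ and CD11b+ cells. The shares of all genes tested were 27% higher and 25% lower in the first and 20.4% and 22.5% in the second. Between CD11b+CD11c+ and CD11b+ cells, 9.63% of all genes were called in either direction. For the last pair, their median was 0.12 against 0.01 for all genes.

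**Figure D4:**
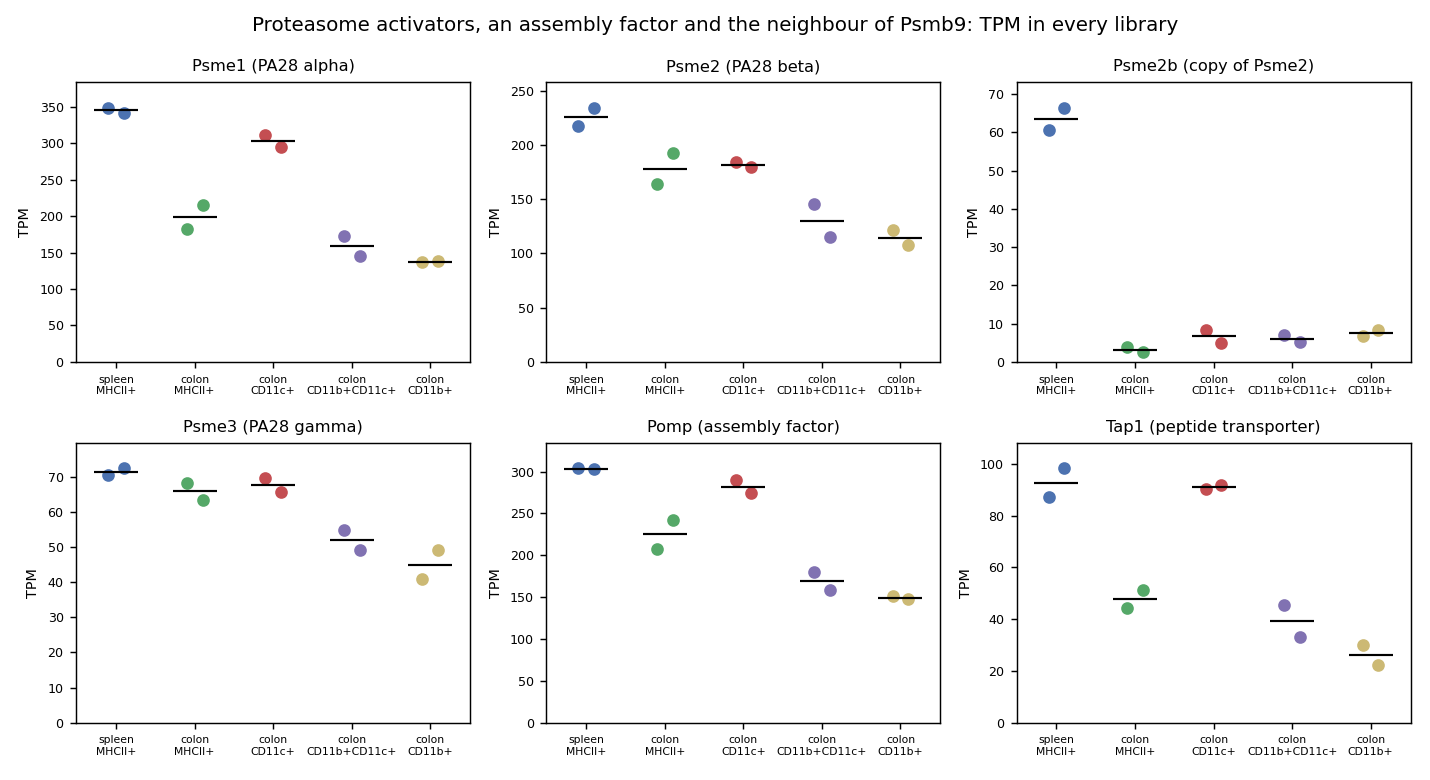
TPM of the activator genes Psme1, Psme2, Psme2b and Psme3, of the assembly factor Pomp and of Tap1 in every library, with points for libraries and a line for the mean of the 2 libraries of a group. Psme1, Pomp and Tap1 have their lowest group mean in CD11b+ cells, and Psme2b is at 60.7 and 66.4 TPM in the splenic libraries and at 2.57 to 8.29 TPM in the 8 colonic ones.

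The 14 listed genes of the interferon gamma axis and of class I peptide processing, all tested, did not move as one. In colonic against splenic MHCII+ cells 7 were called lower and 1 higher, where 28.7% of all genes tested were called lower and 31.6% higher. Nlrc5, the activator of class I genes, was at 57.9 and 63.4 CPM against 183 and 173 CPM (-1.55 ± 0.10, adjusted p = 3.5e-05). Tap1 was at 179 and 208 CPM against 325 and 343 CPM (-0.79 ± 0.11, adjusted p = 0.001), and Tapbp, which bridges the transporter to class I molecules, fell by 0.95 on the log2 scale. Irf1, a factor that binds interferon-responsive promoters, was not called (0.14 ± 0.10, adjusted p = 0.28).

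In CD11b+ against CD11c+ cells 8 of the 14 were called lower and 4 higher, where 25% of all genes were called lower and 27% higher. Tap1, whose promoter window overlaps that of Psmb9, was at 116.5 and 92.5 CPM in CD11b+ cells and at 368 and 388 CPM in CD11c+ cells (-1.85 ± 0.18, adjusted p = 0.00072). The receptor gene Ifngr1 (-1.48), Tap2 (-1.39) and the kinase gene Jak2 (-1.38) were lower too. The other receptor gene Ifngr2 (0.64), the kinase gene Jak1 (0.57) and B2m (0.38) were called higher. Irf1 was also higher, at 203 and 196 CPM in CD11b+ cells against 109 and 104 CPM in CD11c+ cells (0.90 ± 0.09, adjusted p = 0.00094). Irf1 was thus higher in the subset in which Psmb8 and Psmb9 were lower.

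In CD11b+CD11c+ against CD11c+ cells 6 of the 14 were called lower and 4 higher, where 22.5% of all genes were called lower and 20.4% higher. Tap1 was lower (-1.24 ± 0.17, adjusted p = 0.003), as were Ifngr1 (-1.31), Tapbpl, a relative of Tapbp (-1.15), and Tap2 (-1.10). Irf1 was higher (0.63 ± 0.09, adjusted p = 0.0037), as were Jak1 (0.64), Ifngr2 (0.58) and B2m (0.35). Between CD11b+CD11c+ and CD11b+ cells Jak2 was the only one of the 14 called, at 874 and 692.5 CPM against 299.8 and 308 CPM (1.37 ± 0.13, adjusted p = 0.0031). The share of all genes called in that pair was 9.63%. Tap1 was at 183 and 137 CPM against 116.5 and 92.5 CPM in that pair and was not called (0.61 ± 0.17, adjusted p = 0.082).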

How the data were processed

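Each of the 10 libraries had 1 deposited table of 66760 transcripts. The estimated counts were made by the authors with kallisto 0.44.0 without depth normalization, per the submitters' processing notes and the file headers. The TPM values were deposited beside them, computed on effective lengths per the file headers. The notes also name the build mm10. Index release and strand setting, not given in the sources used here, could not be checked. Lengths are coding lengths, since 88.95% of them were multiples of 3. kallisto divides reads that fit several transcripts, which leaves near-identical copies uncertain.

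Transcripts were matched to GENCODE M21 (98.48% matched, and the rest held 0.532 to 0.912% of counts and were left out), summed per gene and rounded. The MHCII+ set and the subset set were fitted apart with edgeR 4.0.16 in R 4.3.3 (filterByExpr, TMM, quasi-likelihood F test, group as the only term). The filter kept 15076 and 14225 genes, and Benjamini-Hochberg adjustment covered all of them. Adjusted p-values are from edgeR where no other tool is given. Ratios used TPM. The alternatives were RLE scaling, DESeq2 1.42.0, no count filter, all 10 libraries in 1 fit, a replicate block, limma 3.58.1 on log2(TPM + 1), an effective length offset and leaving out each library. The edgeR test was also run on simulated data in which every gene had the same spread, and the outcome is not reported here.

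Replicates differed by 10.8 to 38.5 chi-square units per gene, where sampling noise gives about 1, so none appeared to be deposited a second time. The titles give both splenic libraries 1 number, and accession order was used to name them 1 and 2. The genes and lists were chosen with earlier results of these data known. Named in every comparison were Psmb5 to Psmb10 and Psme1 to Psme3. The rule also held Psmb11, which was listed at 0 and not tested. To these were added the 4 largest called rises and falls, the most and least abundant gene of each subcomplex and genes that needed accounting for. From the other lists came up to 4 called genes with the largest change, with Nfe2l1, Pomp, Irf1 and Tap1. The values of 1 further gene are not reported here. Other members and listed genes named beside a count of calls were chosen after their values were seen.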

Additional observations from a re-analysis of the deposited data

How the results depend on the processing

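The directions of Psmb8, Psmb9 and Psme1 in colonic against splenic MHCII+ cells, and in CD11b+ and CD11b+CD11c+ cells against CD11c+ cells, and their calls, were the same under all alternatives run. Over 44 named genes and comparisons, 463 of 533 alternatives kept direction and side of the threshold, 50 lost the call, 11 gained one and 9 reversed. The reversed values were all near 0. Psme3 in colonic against splenic MHCII+ cells was -0.12 with limma on TPM and -0.045 to 0.062 with a library left out. Psmb6 in CD11b+CD11c+ against CD11c+ cells was -0.052 to 0.11 with a library left out. Psmb10 in that comparison was 0.018 with all 10 libraries in 1 fit and -0.11 to 0.0018 with a library left out. Psmb5 in CD11b+CD11c+ against CD11b+ cells was -0.056 with limma on TPM, -0.0014 with the effective length offset and -0.083 to 0.18 with a library left out. The count of called genes in colonic against splenic MHCII+ cells was 26, 11 with limma on TPM and 15 to 24 with a library left out. In CD11b+ against CD11c+ cells it was 28, 14 with limma on TPM and 10 to 28 with a library left out. In CD11b+CD11c+ against CD11c+ cells it was 16, 10 without the count filter, 7 with limma on TPM, 10 with the effective length offset and 3 to 12 with a library left out. In CD11b+CD11c+ against CD11b+ cells it was 2, 8 with DESeq2, 10 with all 10 libraries in 1 fit, 0 with limma on TPM, 1 with the effective length offset and 0 to 2 with a library left out. The log2 difference of the catalytic ratio between CD11b+ and CD11c+ cells was -1.21, -1.12 on TMM-scaled CPM and -0.99 as the mean of the 3 pairs. Between CD11b+CD11c+ and CD11c+ cells it was -0.83, and -0.62 as the mean of the 3 pairs. The cause was not tested. With a library left out, the lone library of its group is assumed to vary like the others. The number of all genes called changed as well, in these fits and under the other alternatives. Among all genes called in colonic against splenic MHCII+ cells, 52.5% were higher with TMM and 41.1% with limma on TPM, and in CD11b+CD11c+ against CD11b+ cells 39.3% with TMM, 50% with DESeq2, 60.5% with all 10 libraries in 1 fit and 29.9% were higher with limma on TPM.

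The subset titles share replicate numbers, and whether same-numbered libraries share an animal or a sort is not stated. Over genes, the deviations of same-numbered libraries correlated at -0.06 between CD11b+ and CD11c+ cells. They correlated at 0.26 between CD11b+CD11c+ and CD11c+ cells and at -0.01 between CD11b+CD11c+ and CD11b+ cells. With 1 difference per group, these values cannot decide whether the libraries are paired. With the replicate block the counts were 26, 14 and 2 in the 3 subset comparisons. No paired analysis was possible for the MHCII+ set because the 2 splenic libraries share 1 replicate number.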
